A study of Mus musculus with 32 samples.

Results

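The Schlafen family was followed as 7 mouse genes, Slfn1, Slfn2, Slfn3, Slfn4, Slfn5, Slfn8 and Slfn9, out of the 54281 genes counted in 32 RNA-seq libraries of cultured macrophages. The genes were chosen by name, with earlier results of these data known, and their rows were found through the Ensembl identifier of each symbol. All 7 were present in the table and all 7 passed the filter on low counts, as 15257 genes did. The cells were bone marrow-derived macrophages (BMDMs), bone marrow precursors that had been differentiated in medium conditioned by L929 cells. Every mouse carried R26 CreERT2, a Cre recombinase expressed from the Rosa26 locus in all cell types and active only in the presence of a tamoxifen derivative. The genotypes were Trex1 FL/FL, with loxP sites in both alleles of Trex1, and Trex1 WT/FL, with loxP sites in 1 allele and a wild-type allele beside it. BMDMs of each genotype were either left untreated or given 4-hydroxytamoxifen (4-OHT) at 2 µg/ml for 22 h, and RNA was taken on days 1, 2, 3 and 4. This gave 16 groups of 2 libraries each. Below, Trex1 FL/FL BMDMs given 4-OHT are called Trex1-deleted and Trex1 WT/FL BMDMs given 4-OHT are called controls. The controls were therefore Cre-positive, exposed to the drug and left with 1 intact Trex1 allele, and no group lacked Cre. The labels name no animal, culture or batch for a library, so the p-values below measure the spread between 2 libraries of a group, which may be technical. In bulk RNA, fewer cells with a transcript and less transcript per cell cannot be told apart.

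TREX1 is a DNase that removes DNA from the cytosol. Where it is lost, cytosolic DNA can activate the sensor cGAS and its adaptor STING, and type I interferon is made. The interferon acts through its receptor and the transcription factors downstream of it on genes that carry interferon-stimulated response elements, and the Schlafen genes of the mouse are among the genes known to respond to it. Schlafen proteins share a core domain that binds and in some members cleaves RNA, in particular tRNA. The short proteins SLFN1 and SLFN2 consist mainly of this core, SLFN3 and SLFN4 are of intermediate length, and SLFN5, SLFN8 and SLFN9 are long forms with a helicase-like carboxy-terminal part. The family is best known for roles in the growth arrest and quiescence of lymphocytes and myeloid cells and in the restriction of viruses.

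The 7 genes lay in 1 cluster on chromosome 11, chr11:82842100-83109101 in GRCm39, a span of 267002 bases with 0 protein-coding genes of other families inside it. In order along the chromosome these were Slfn5 (ENSMUSG00000054404), Slfn9 (ENSMUSG00000069793) and Slfn8 (ENSMUSG00000035208), then Slfn2 (ENSMUSG00000072620), Slfn1 (ENSMUSG00000078763), Slfn4 (ENSMUSG00000000204) and Slfn3 (ENSMUSG00000018986). Slfn9 and Slfn8 are transcribed from the minus strand and the other 5 from the plus strand. Their canonical transcripts had between 2 exons (Slfn1 and Slfn2) and 7 exons (Slfn4). Because the genes arose by duplication, parts of their transcripts are identical. Of all 31-base words in the transcripts of a gene, 26.8% of those of Slfn8 and 22.3% of those of Slfn9 occurred in some other gene, mostly in other Schlafen genes. The share was 19.1% for Slfn3 and 18.3% for Slfn4, which share words with each other and with the pseudogene Gm11427, 9.63% for Slfn2, 5.48% for Slfn5 and 1.78% for Slfn1. Counts of Slfn3, Slfn4, Slfn8 and Slfn9 thus depend on how reads in shared stretches were divided, and these genes were also tested as sums. Whether the counting used strand is not given in the sources used here, and Slfn2 and Slfn5 overlap genes on the other strand (Slfn10 and Gm20234, and Slfn5os).

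Promoter sequence is shown for 5 members, taken from the RefSeq promoter table (built on GRCm38.p6) and found once each, letter for letter, in GRCm39. It is printed 5′ to 3′ on the strand of the gene, from 250 bases before the RefSeq start up to the first base of any annotated exon that begins within those bases. The annotated gene of Slfn5 begins further upstream, at chr11:82842100. The stretch printed for Slfn5 therefore lies inside that gene, and sequence before the annotated start was not searched. Slfn5, Slfn8 and Slfn9 are shown because they were the members whose windows held the core of the interferon-stimulated response element, written GAAANNGAAA and searched on both strands, which is in capitals. Slfn1 and Slfn4 are shown because they had the largest changes of the family, and capitals there mark the longest run of letters that both share.
Slfn5, chr11:82842678-82842810, plus strand: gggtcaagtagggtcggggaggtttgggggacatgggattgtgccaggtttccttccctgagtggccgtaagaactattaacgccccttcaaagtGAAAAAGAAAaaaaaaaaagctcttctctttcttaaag
Slfn8, chr11:82911670-82911886, minus strand: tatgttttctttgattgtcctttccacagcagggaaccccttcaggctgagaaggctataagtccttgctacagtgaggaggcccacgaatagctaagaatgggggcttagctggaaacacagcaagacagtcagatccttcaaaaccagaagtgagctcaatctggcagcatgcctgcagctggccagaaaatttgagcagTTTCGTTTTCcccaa
Slfn9, chr11:82882657-82882906, minus strand: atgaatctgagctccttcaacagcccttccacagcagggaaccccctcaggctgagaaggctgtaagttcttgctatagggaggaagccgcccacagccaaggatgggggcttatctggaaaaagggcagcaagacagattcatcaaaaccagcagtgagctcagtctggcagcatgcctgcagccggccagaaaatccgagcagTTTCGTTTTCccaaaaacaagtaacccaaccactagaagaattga
Slfn1, chr11:83007396-83007614, plus strand: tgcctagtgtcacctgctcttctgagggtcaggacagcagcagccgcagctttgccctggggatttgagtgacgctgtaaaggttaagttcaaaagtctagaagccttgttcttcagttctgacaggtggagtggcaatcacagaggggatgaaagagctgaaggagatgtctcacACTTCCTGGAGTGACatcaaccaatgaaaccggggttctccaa
Slfn4, chr11:83065762-83066011, plus strand: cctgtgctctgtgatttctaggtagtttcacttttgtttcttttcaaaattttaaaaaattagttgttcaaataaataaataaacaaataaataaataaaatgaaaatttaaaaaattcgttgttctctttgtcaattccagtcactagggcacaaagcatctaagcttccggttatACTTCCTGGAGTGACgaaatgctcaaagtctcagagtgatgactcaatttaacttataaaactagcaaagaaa

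The core motif began 155 bases before the RefSeq start of Slfn5, 45 bases before that of Slfn9 and 48 bases before the start of Slfn8 that lies nearest to the annotated one, and in Slfn8 and Slfn9 it was the same 10 letters on the opposite strand. Of all 32851 promoter windows in the table, 3.44% held this motif somewhere in their 300 bases. The windows of Slfn1, Slfn2, Slfn3 and Slfn4 had no match. None of the 7 had a match to the gamma-activated site TTCNNNGAA, which 8.3% of all windows held. The RefSeq start of Slfn2 lay 329 bases inside the annotated gene. Its window therefore held no sequence before the annotated start, which was not searched. A search for shared letters was made after the sequences had been seen. It found the 9 letters ACTTCCTGG in the windows of Slfn1, Slfn2, Slfn3 and Slfn4, at 74, 55, 42 and 73 bases before the RefSeq start. These letters were absent from those of Slfn5, Slfn8 and Slfn9 and present in 230 of the 32851 windows (0.7%). The 15-letter run printed in capitals for Slfn1 and Slfn4 was found in 2 of the 32851 windows, which were theirs. The longest run common to Slfn8 and Slfn9 had 20 letters. Such matches describe these windows and are not evidence that a factor binds there.

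The deletion was visible in the counts of Trex1. Levels are given in CPM, the counts per 1000000 of a library's total after scaling by the TMM factors of the fit. In Trex1-deleted BMDMs both libraries of days 1, 3 and 4 had 0 Trex1 counts, which allows up to 0.0513 to 0.0908 CPM by counting error alone, and those of day 2 had 14 and 9 counts. The control libraries had 758 to 3622 counts and the untreated libraries 1174 to 6553. Against untreated Trex1 WT/FL BMDMs of the same day, Trex1 in the controls had log2 fold changes of -1.158, -1.056, -0.865 and -0.799 on days 1, 2, 3 and 4. Library totals ran from 35120505 to 63760884 estimated counts with a median of 44841991. Of the macrophage markers (Adgre1, Csf1r, Cd68, Mertk, Itgam and Fcgr1), all 6 were present, with a summed level of 3800 to 13910 CPM. Markers of other cells were low: 4.65 to 18.8 CPM for 7 neutrophil and granule genes, 1.31 to 6.58 CPM for 4 B cell genes and at most 0.768 CPM for 5 T cell genes, with the NK cell gene Ncr1 at 0 throughout. No pair of libraries in a group was a copy of the other, since their counts differed by 8.55 to 47.0 times the sampling noise (chi-square per degree of freedom).

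All 7 Schlafen genes were higher in Trex1-deleted BMDMs from day 2 on. In the comparison of Trex1-deleted cells with controls, 0 of 7 were called on day 1 and 7 of 7 were called higher on each of days 2, 3 and 4 (edgeR quasi-likelihood test, Benjamini-Hochberg adjusted p below 0.01). On day 1, edgeR gave 1 member at an unadjusted p below 0.05 (Slfn5, with a log2 fold change of 0.27 ± 0.11), beside 308 of all 15257 genes, and DESeq2 called 0. Of all 15257 genes, 0.0197% were called in either direction on day 1, and 5.69%, 6.69% and 9.84% were called higher on days 2, 3 and 4. The median log2 fold change of the 7 genes was 0.11, 1.08, 1.06 and 1.90 over days 1 to 4, whereas that of all tested genes lay between -0.04 and -0.01. With the fold minimum of the study as well (log2 fold change above 1.5), Slfn1 and Slfn4 made up the 2 members that passed on day 2, Slfn3 joined them to give 3 by day 3, and Slfn8 and Slfn9 joined to give 5 by day 4. The shares of all genes that passed this pair of limits in the upward direction were 0.498%, 0.485% and 1.65%. The summed level of the monocyte markers Ly6c2 and Ccr2, nearly all of it Ccr2, moved with the groups on day 4. It was 63.2 and 69.8 CPM in Trex1-deleted BMDMs and 20.2 and 29.4 CPM in control BMDMs, whereas the libraries of the genotypes overlapped on days 1 and 2 and just missed each other on day 3 (111.3 to 116 CPM against 76.3 to 111.1 CPM). The dendritic cell markers Flt3, Xcr1, Siglech and Zbtb46 were compared as a sum, most of it Zbtb46. The sum was lower in Trex1-deleted than in control libraries on days 2, 3 and 4. It was 0.619 to 0.777 CPM against 0.849 to 1.35 CPM on day 2 and 1.05 to 1.59 CPM against 2.04 to 2.12 CPM on day 3. On day 4 it was 0.692 to 1.18 CPM against 1.36 to 1.57 CPM. On day 1 it was higher in Trex1-deleted libraries, at 1.09 to 1.21 CPM against 0.691 to 1.02 CPM. The macrophage markers summed to 12610 and 12630 CPM in Trex1-deleted libraries and 12940 and 13130 CPM in control libraries on day 4. The part of these markers in the result was not tested.

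**Figure D1:**
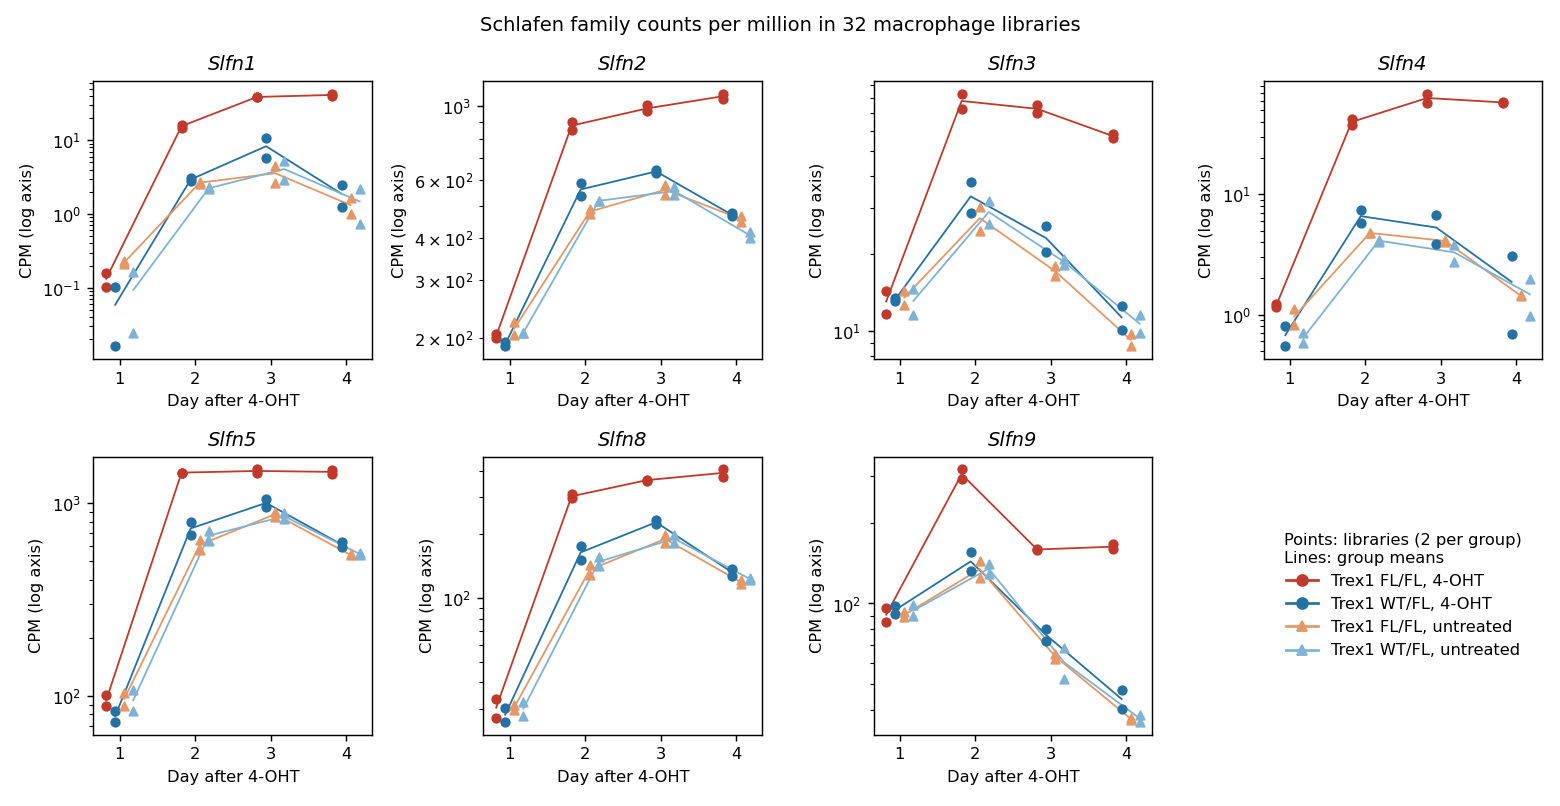
Level in CPM of the 7 Schlafen genes (logarithmic axis) against the day after 4-OHT, with 1 point for each of the 32 libraries and lines through the group means. From day 2 the red points of Trex1-deleted BMDMs lie above those of the other 3 arms for every gene, while on day 1 the arms lie close together except for Slfn1 and Slfn4, which have few counts.

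Among the short members, Slfn1 was the least abundant gene of the family on day 1 and one of those that changed most. SLFN1 was described as a brake on the growth of thymocytes. It had 5 and 8 counts in the Trex1-deleted libraries of day 1 and 6 and 1 counts in the control libraries. On day 2 the Trex1-deleted libraries had 14.8 and 16.2 CPM and the control libraries 3.09 and 2.77 CPM. On day 3 these were 38.5 and 38.6 CPM against 5.75 and 10.8 CPM, and on day 4 39.4 and 42.7 CPM against 1.25 and 2.51 CPM. The genotypes did not overlap on days 2, 3 or 4, and the control libraries of days 3 and 4 were far apart from each other. The share of all genes without overlap was not counted, here or for the members below. On day 1, when no member was called, the genotypes did not overlap for Slfn1, Slfn2, Slfn4 and Slfn5 either. Over days 2 to 4 the log2 fold change of Slfn1 was 2.40 ± 0.41 (SE, n = 2 per group), 2.22 ± 0.39 and 4.47 ± 0.44, the last a 22.2-fold difference. The edgeR adjusted p-values (Benjamini-Hochberg) were 0.00043, 0.000412 and 2.95e-07. The day 2 call was lost without the second control library (log2 fold change 2.33, adjusted p = 0.013 in edgeR) and the day 3 call without the first (1.83, adjusted p = 0.0149) or in a fit to the compared groups only (2.23, adjusted p = 0.0522).

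Slfn2 had the highest level per length in every group and the smallest spread between libraries, and its genotype difference was the smallest of the 7 on days 2 and 4. SLFN2 keeps T cells and monocytes in quiescence and protects tRNA from cleavage under stress. On day 4 its level was 1093 and 1053 CPM in Trex1-deleted BMDMs and 468 and 476 CPM in control BMDMs. On day 2 it was 850.15 and 900.05 CPM against 586 and 537 CPM, and on day 3 1007 and 966 CPM against 630 and 644 CPM. No library of 1 genotype reached those of the other on these days, and even on day 1 the levels of 200.02 and 206 CPM lay just above 195 and 189 CPM. The log2 fold change was 0.08 ± 0.05 on day 1, which was not called, and on the later days 0.64 ± 0.05, 0.63 ± 0.05 and 1.19 ± 0.05 (adjusted p = 2.56e-09, 2.17e-09 and 3.42e-15, edgeR with Benjamini-Hochberg adjustment).

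Of the intermediate members, Slfn4 had the largest log2 fold change of the whole family on days 2, 3 and 4. It was not tested against Slfn1, which had 2.40 ± 0.41 on day 2 and 4.47 ± 0.44 on day 4. Slfn4 is a myeloid gene whose level falls as monocytes mature into macrophages. On day 1 it had 55 and 61 counts in the Trex1-deleted libraries and 32 and 50 in the control libraries. On day 2 it stood at 42.6 and 37.7 CPM against 7.45 and 5.75 CPM. On day 3 it stood at 69.0 and 58.0 CPM against 3.88 and 6.72 CPM, and on day 4 at 58.2 and 58.6 CPM against 0.692 and 3.05 CPM. The genotypes were fully separate on each of these days, and the 2 control libraries of day 4 differed from each other 4.40-fold. The log2 fold changes were 2.61 ± 0.36, 3.59 ± 0.38 and 5.02 ± 0.42, or 6.10-fold, 12.0-fold and 32.4-fold (adjusted p = 5.43e-05, 2.3e-06 and 4.01e-08, edgeR with Benjamini-Hochberg adjustment). Leaving out either control library of day 4 moved the day 4 value to 4.26 or 6.39, with the call kept in both cases. In an edgeR fit to the compared groups only, Slfn4 was not called on day 3 (adjusted p = 0.0115) or day 4 (adjusted p = 0.0478).

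Slfn3, which has been linked to T cell quiescence and to the differentiation of intestinal epithelium, moved in the same direction from a higher starting level. It was level between the genotypes on day 1, with 14.4 and 11.7 CPM in Trex1-deleted BMDMs and 13.5 and 13.1 CPM in control BMDMs. On day 2 it reached 83.5 and 73.0 CPM against 37.9 and 28.7 CPM. On day 3 it had 75.8 and 70.1 CPM against 20.3 and 25.6 CPM, and on day 4 56.3 and 58.1 CPM against 10.1 and 12.5 CPM. The genotypes overlapped on day 1 only, and the levels of both were lower on day 4 than on day 2. Over days 2 to 4 its log2 fold change was 1.23 ± 0.15, 1.67 ± 0.16 and 2.34 ± 0.16 (edgeR adjusted p = 5.18e-06, 1.24e-07 and 3.26e-10, Benjamini-Hochberg). The day 2 call was lost in a fit to the compared groups only (log2 fold change 1.24). When the counts of Slfn3 and Slfn4 were added together, which removes any misassignment between them, the sum rose by 1.57 ± 0.17, 2.27 ± 0.18 and 3.14 ± 0.19.

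The long members had smaller folds than Slfn1, Slfn3 and Slfn4 on higher levels. Slfn5 encodes a nuclear member that can repress transcription. Its libraries of day 4 had 1417 and 1491 CPM in Trex1-deleted BMDMs and 591 and 630 CPM in control BMDMs. On day 2 these were 1441 and 1441 CPM against 798 and 680 CPM, and on day 3 1442 and 1498 CPM against 959 and 1048 CPM. The level of the Trex1-deleted libraries was much the same on days 2, 3 and 4, and the control libraries were nearest to it on day 3. The log2 fold change was 0.96 ± 0.11, 0.55 ± 0.10 and 1.25 ± 0.11 on days 2, 3 and 4 (adjusted p = 9.79e-07, 0.000595 and 6.48e-09, edgeR with Benjamini-Hochberg adjustment). The day 3 call of Slfn5 was lost without the first control library of that day, with a log2 fold change of 0.49 and an edgeR adjusted p of 0.0197.

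Slfn8 and Slfn9 are neighbours on the minus strand whose promoter windows hold the same response element core, yet their courses over the days were different. Slfn8 climbed to 375 and 406 CPM in Trex1-deleted BMDMs on day 4, when the control libraries had 128 and 138 CPM. On day 2 it had 296 and 309.7 CPM against 177 and 152 CPM, and on day 3 359 and 363 CPM against 223 and 234 CPM. Slfn9 was at its highest on day 2, with 318 and 292 CPM in Trex1-deleted and 155 and 132 CPM in control libraries. On day 3 it had 158 and 160.4 CPM against 72.1 and 80.3 CPM, and on day 4 159 and 167 CPM against 40.2 and 47.6 CPM. The genotypes did not overlap for either gene on any of days 2 to 4, and the share of all genes without overlap was not counted. The log2 fold changes of Slfn8 were 0.88 ± 0.09, 0.66 ± 0.09 and 1.56 ± 0.09 on days 2, 3 and 4, and those of Slfn9 were 1.08 ± 0.11, 1.06 ± 0.11 and 1.90 ± 0.11. The edgeR adjusted p-values (Benjamini-Hochberg) ranged from 5.08e-12 to 1.3e-05 for Slfn8 and from 2.28e-11 to 4.16e-07 for Slfn9. Added together with Slfn10, which shares words with both, they changed by 0.97 ± 0.08, 0.81 ± 0.08 and 1.63 ± 0.08.

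**Figure D2:**
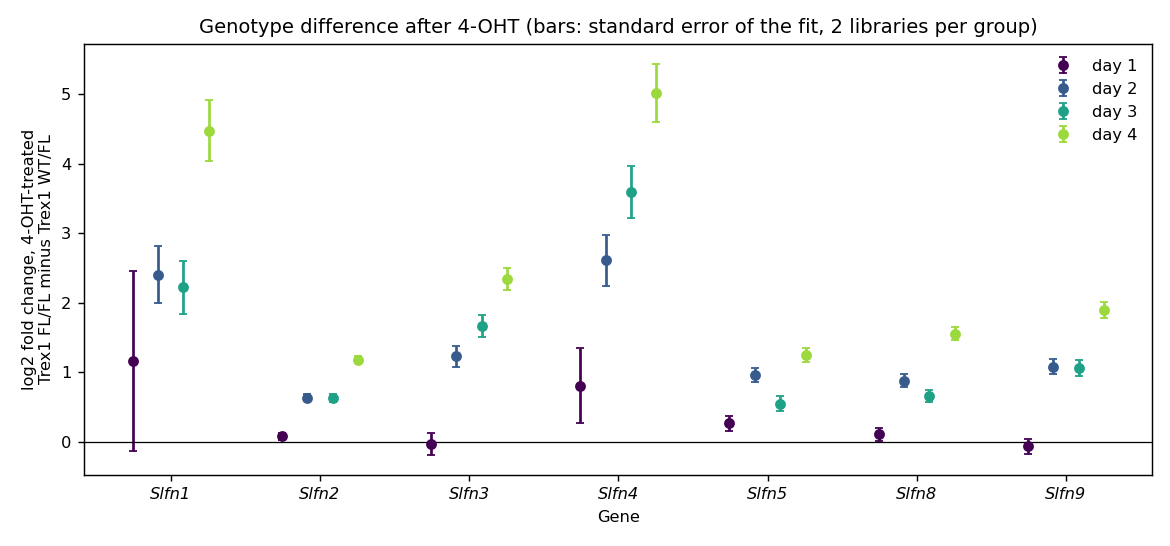
Log2 fold change of each Schlafen gene, Trex1-deleted minus control BMDMs, on days 1 to 4, with the standard error of the fit as bars. Slfn4 and Slfn1 reach 5.02 and 4.47 on day 4 with standard errors near 0.4, Slfn2 reaches 1.19, and the day 1 values are near 0 for the members with more than a few counts.

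Untreated cells gave the background of the genotype comparison. Without 4-OHT, 0 of 7 members were called between Trex1 FL/FL and Trex1 WT/FL on any day, and the shares of all genes called were 0%, 0%, 0% and 0.0655% on days 1 to 4. At an unadjusted p below 0.05, edgeR gave 0 members on days 1, 2 and 3 and 1 on day 4 (Slfn2, with a log2 fold change of 0.16 ± 0.05), and DESeq2 called 0 on each day. Of all 15257 genes, 1129, 588, 468 and 2414 were below this limit in edgeR on days 1, 2, 3 and 4. The median of the 7 log2 fold changes was 0.04, -0.08, 0.01 and -0.02. The summed level of the 7 genes on day 4 was 1155 and 1174 CPM in untreated Trex1 FL/FL BMDMs and 1123 and 1133 CPM in untreated Trex1 WT/FL BMDMs. After 4-OHT it was 3198 and 3277 CPM in the former and 1239 and 1309 CPM in the latter.

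In cells that kept a wild-type allele, 4-OHT was not accompanied by a called change of any member. In Trex1 WT/FL BMDMs, 4-OHT against no treatment gave 0 of 7 calls on each day, with 0.00655%, 0.0918%, 0.341% and 0.216% of all genes called. The treated libraries are the controls of the genotype comparison and had lower Trex1 levels than the untreated ones. An effect of the drug and an effect of the lost Trex1 allele cannot be told apart here. All 7 members had a positive log2 fold change on each of days 2, 3 and 4. On day 3 the values ran from 0.20 for Slfn2 to 1.03 for Slfn1 with a median of 0.31, and 5 of 7 had an unadjusted p below 0.05 in edgeR, while on days 1, 2 and 4 this number was 2, 1 and 2. Of all 15257 genes, 378, 530, 1281 and 1080 were below this limit in edgeR on days 1, 2, 3 and 4. DESeq2 called 0 on each day. Without a filter on low counts edgeR called 3 members higher on day 3 and 1 on day 2. The share of all genes called in that fit was not counted. The median of all tested genes in this comparison on day 3 was 0.00. The fit paired no libraries. In sample order, Slfn1 on day 3 had 2.90 and 5.23 CPM in untreated libraries and 5.75 and 10.8 CPM in treated ones. The same library in this order was the higher in both arms on days 1, 3 and 4. On day 2 it was not, with 2.17 and 2.29 CPM untreated and 3.09 and 2.77 CPM treated. Whether libraries of the arms shared a culture is not given, and a paired fit was not tested.

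In Trex1 FL/FL BMDMs the same treatment gave 0 of 7 calls on day 1 and 7 of 7 in the upward direction on days 2, 3 and 4, beside 0.0131% of all genes in either direction on day 1 and 7.49%, 8.12% and 10.2% called higher on days 2, 3 and 4. On day 1, edgeR gave 0 members at an unadjusted p below 0.05, beside 1068 of all 15257 genes, and DESeq2 called 0. This comparison shares its treated libraries with the genotype comparison. On day 4 the log2 fold change was 5.34 ± 0.43 for Slfn4, 5.00 ± 0.46 for Slfn1, 2.62 ± 0.17 for Slfn3, 2.14 ± 0.12 for Slfn9, 1.71 ± 0.10 for Slfn8, 1.43 ± 0.11 for Slfn5 and 1.23 ± 0.05 for Slfn2.

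The effect of 4-OHT was then compared between the genotypes in 1 term, which uses all 4 arms of a day. The term was called for 0, 6, 5 and 7 of 7 members over days 1 to 4, each in the upward direction. The shares of all genes were 0.00655% in either direction on day 1 and 3.55%, 2.65% and 5.15% upward on days 2, 3 and 4. On day 1 no member had an unadjusted p below 0.05 in edgeR, beside 545 of all 15257 genes, and DESeq2 called 0. On day 2 the member that missed was Slfn1 (2.15 ± 0.60, adjusted p = 0.0389 in edgeR), and on day 3 those were Slfn1 (2.40 ± 0.57, adjusted p = 0.0115) and Slfn5 (0.52 ± 0.15, adjusted p = 0.0314). DESeq2 called 6 and 7 members on days 2 and 3, and the share of all genes it called was not counted. On day 4 the term ranged from 1.02 ± 0.08 for Slfn2 to 5.00 ± 0.66 for Slfn4.

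The family was not silent in cells with intact Trex1. In untreated BMDMs, averaged over both genotypes, 7 of 7 members were called higher on day 2 than on day 1, beside 25.6% of all genes. Slfn1 rose by 4.04 ± 0.48 on the log2 scale from 1 to 14 counts per library on day 1, Slfn5 rose by 2.75 ± 0.08 and Slfn8 by 2.23 ± 0.07, while Slfn9 rose by 0.55 ± 0.08. Between days 2 and 3 the members went in both directions. Slfn5 (0.43 ± 0.07), Slfn8 (0.42 ± 0.07) and Slfn2 (0.16 ± 0.04) were called higher, beside 24.8% of all genes. Slfn9 fell by 1.13 ± 0.08 and Slfn3 fell by 0.67 ± 0.11, beside 23.4% of all genes called lower. Between days 3 and 4 all 7 were called lower, beside 11.8% of all genes, by 0.37 ± 0.04 for Slfn2 up to 1.51 ± 0.33 for Slfn1. This count was 5 without the first Trex1 FL/FL library of day 3 or of day 4, the second Trex1 WT/FL library of day 3 or the first of day 4, and the count between days 2 and 3 was 4 without the first Trex1 FL/FL library of day 3. Cell markers moved over the same days in untreated libraries. The macrophage markers summed to 3838 to 3995 CPM on day 1, 7621 to 8443 CPM on day 2, 13090 to 13910 CPM on day 3 and 11810 to 13020 CPM on day 4, and the monocyte markers to 108 to 164 CPM on day 3 and 24.8 to 33.7 CPM on day 4. Their part in the day-to-day changes was not tested.

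In Trex1-deleted BMDMs all 7 members rose between days 1 and 2, and none was called between days 3 and 4. From day 1 to day 2, 7 of 7 members were called higher, beside 21.7% of all genes, with log2 changes from 1.75 ± 0.11 for Slfn9 through 3.93 ± 0.12 for Slfn5 to 6.84 ± 0.61 for Slfn1. From day 2 to day 3, Slfn1 was called higher (1.31 ± 0.37, adjusted p = 0.00814, edgeR with Benjamini-Hochberg adjustment), beside 15.1% of all genes, and Slfn9 was called lower, by 0.94 ± 0.11 on the log2 scale, beside 18% of all genes. The call of Slfn1 was lost when any 1 of the 4 libraries was left out, and that of Slfn9 was not. From day 3 to day 4, 0 of 7 members were called, beside 9.33% of all genes in either direction. At an unadjusted p below 0.05, edgeR gave 2 members (Slfn2 with 0.12 ± 0.05 and Slfn3 with -0.35 ± 0.15), and DESeq2 called 0. Of all 15257 genes, 4193 were below this limit in edgeR. Untreated and Trex1-deleted cells were not compared in 1 test over these days.

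The genotype difference after 4-OHT was itself compared between successive days. Between days 1 and 2 it increased for 5 of 7 members (Slfn2, Slfn3, Slfn5, Slfn8 and Slfn9), beside 2.67% of all genes, by 0.56 ± 0.08 for Slfn2 up to 1.26 ± 0.22 for Slfn3. Slfn4 (1.80 ± 0.66, adjusted p = 0.162) and Slfn1 (1.24 ± 1.53, adjusted p = 0.834) had larger standard errors, with few counts on day 1, and were not called by edgeR. Between days 2 and 3 it changed for 0 of 7, beside 0.905% of all genes in either direction. At an unadjusted p below 0.05, edgeR gave 1 member (Slfn5, -0.41 ± 0.15), beside 2258 of all 15257 genes, and DESeq2 called 0. Between days 3 and 4 the genotype difference increased for 4 of 7 members, Slfn2 (0.55 ± 0.08), Slfn5 (0.70 ± 0.15), Slfn8 (0.90 ± 0.13) and Slfn9 (0.83 ± 0.16), beside 1.67% of all genes. Slfn1 (2.25 ± 0.56, adjusted p = 0.0187), Slfn4 (1.43 ± 0.53, adjusted p = 0.134) and Slfn3 (0.67 ± 0.22, adjusted p = 0.0719) went the same way without passing in edgeR. The count of 5 between days 1 and 2 dropped to 3 without the second Trex1-deleted library of day 1. The count of 4 between days 3 and 4 dropped to 2 without the second control library of day 3 or the first of day 4.

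Levels were compared between members per kilobase of the canonical transcript. Slfn2 was first in all 16 groups, with 102 ± 2.14 CPM per kb (SD, n = 2) in Trex1-deleted BMDMs on day 1 and 538 ± 14.0 on day 4. Slfn5 was next from day 2 on, at 243 ± 8.81 CPM per kb on day 4 in the same cells, followed by Slfn8 at 99.5 ± 5.51 and Slfn9 at 24.9 ± 0.832. The order below these varied between groups. In Trex1-deleted BMDMs of day 4, Slfn1 came next with 21.4 ± 1.2 CPM per kb, before Slfn4 with 15.1 ± 0.0740 and Slfn3 with 11.1 ± 0.245, and no neighbours in this order overlapped. On day 2 the order in these cells was Slfn3, Slfn4 and Slfn1. In control BMDMs of day 4, Slfn3 came next with 2.20 ± 0.333, before Slfn1 with 0.976 ± 0.462 and Slfn4 with 0.482 ± 0.430, whose libraries overlapped, and untreated BMDMs of both genotypes had this order on day 4 too. On day 1 Slfn9 (13.9 ± 1.23 CPM per kb) stood close to Slfn5 (15.8 ± 1.42) in Trex1-deleted BMDMs, and in control BMDMs it stood above it with overlapping libraries.

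**Figure D3:**
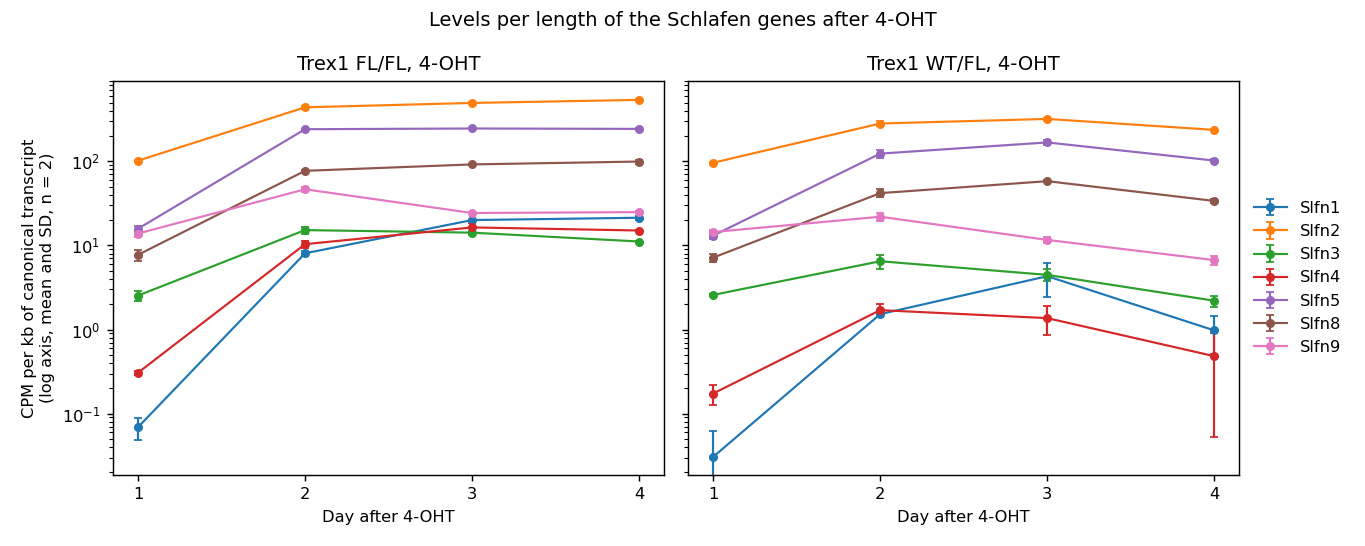
Level per length of each Schlafen gene in CPM per kb of the canonical transcript (logarithmic axis, mean and SD of 2 libraries) against the day after 4-OHT, for Trex1-deleted and control BMDMs. Slfn2 is the top line in both panels, Slfn9 is lower on days 3 and 4 than on day 2 in both, and Slfn1 and Slfn4 start lowest and end at 21.4 and 15.1 CPM per kb in Trex1 FL/FL BMDMs on day 4.

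The 7 members did not share 1 time course. Across the 16 group means of log2 CPM, which share the same libraries and scaling, Slfn5 and Slfn8 were the most alike (Pearson r = 0.995), and Slfn1, Slfn2, Slfn5 and Slfn8 had r from 0.954 to 0.995 with each other. Slfn9 was alike to Slfn3 (r = 0.86) and unlike Slfn5 (r = 0.209) and its neighbour Slfn8 (r = 0.257). The genes outside the family with the most similar course were Parp14, Trafd1 and Iigp1 for Slfn5 (r = 0.999 to 0.998), Ifi209, Ifi44 and Ifit3b for Slfn8 (r = 0.999 to 0.998), and Tap1, Ifi211 and Fcgr1 for Slfn2 (r = 0.998 to 0.997). For Slfn1 these were Fcgr1, H2-T10 and Phf11d (r = 0.992 to 0.990), and for Slfn4 they were Apol9a, Helz2 and Nt5c3 (r = 0.987 to 0.981). Slfn3 was closest to Setdb2, Tpst1 and Slc44a2 (r = 0.991 to 0.979), and Slfn9 to Aida, Usp25 and Pnpt1 (r = 0.989 to 0.979). Fcgr1 encodes the high-affinity receptor for IgG and is also on the list of macrophage markers above, so that list is not free of genes with the course of Slfn1 and Slfn2.

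Other Schlafen genes and the genes around the cluster were set beside the family. Slfn10, a further Schlafen gene within the cluster, was called higher in Trex1-deleted than in control BMDMs on days 2, 3 and 4 (log2 fold change 0.83 ± 0.09, 1.18 ± 0.09 and 1.5 ± 0.09), and the noncoding Slfnlnc on day 4 (0.36 ± 0.08). Slfnlnc was not called by edgeR on day 4 for 4-OHT in Trex1 FL/FL cells (0.19 ± 0.08, adjusted p = 0.0797) or for the interaction (0.23 ± 0.11, adjusted p = 0.208). Slfn5os was tested and not called, and Slfn14 and Slfnl1, with at most 4 counts in any library, were not tested. Slfnl1 lies on chromosome 4, away from the cluster. Beyond the cluster, the nearest protein-coding genes included Fndc8, Nle1 and Unc45b on one side and Ap2b1 and Rasl10b on the other. Nle1 and Ap2b1 passed the filter, and neither was called on any of the 4 days by edgeR. Their log2 fold changes on day 4 were 0.17 ± 0.13 and -0.17 ± 0.06.

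**Figure D4:**
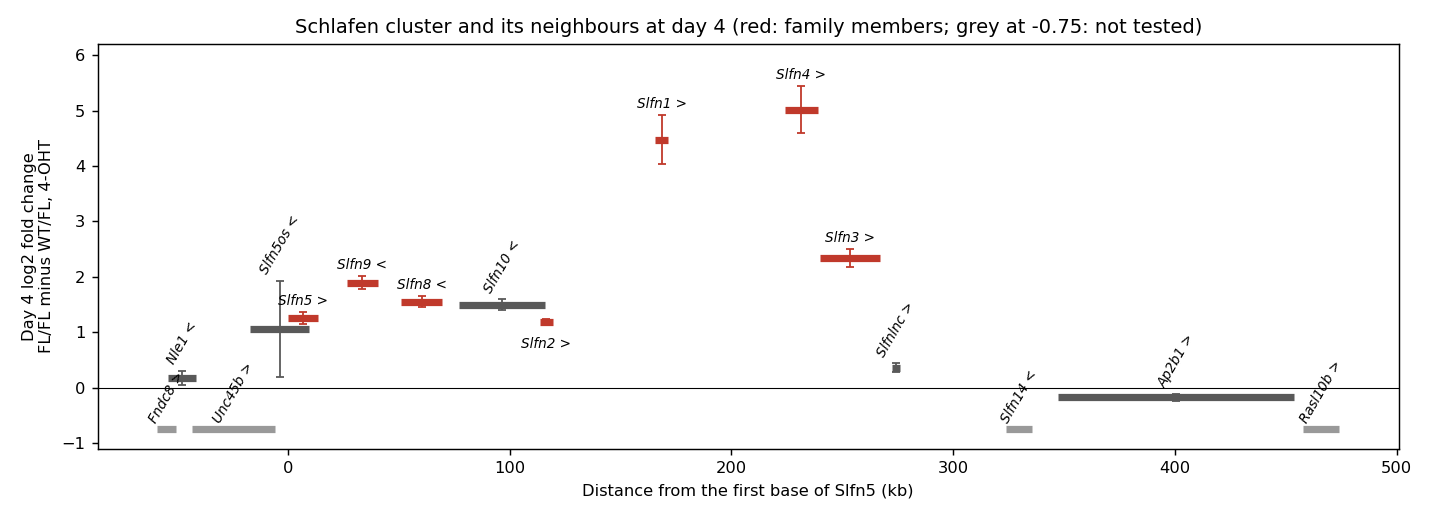
Map of the Schlafen cluster, with each gene drawn at its distance in kb from the first base of Slfn5 and at its day 4 log2 fold change between Trex1-deleted and control BMDMs, with the standard error (signs > and < give the strand, and genes drawn in light grey below the zero line were not tested). The 7 members lie between 1.19 and 5.02, with Slfn1 and Slfn4 near the right end of the cluster highest, and the flanking genes Nle1 and Ap2b1 lie at 0.17 and -0.17.

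Other interferon-induced genes gave the setting in which the family moved. Of a list of 25 such genes, 0, 25, 24 and 25 were called higher on days 1 to 4 in the same comparison, with medians of 0.40, 1.56, 1.25 and 2.45 on the log2 scale. On day 4 the 2 highest were Cxcl10, a chemokine (3.65 ± 0.28), and Rsad2, the antiviral enzyme viperin (3.42 ± 0.28), and the 2 lowest were Rtp4 (1.06 ± 0.07) and Oasl2 (1.25 ± 0.10). Slfn4 and Slfn1 lay above the highest of these 25 values on days 3 and 4, and Slfn2 and Slfn5 lay near the lowest ones on day 4. This order was not tested. On day 3 Slfn1 had 2.22 ± 0.39 and Rsad2, the highest of the 25, had 1.78 ± 0.26. On day 4 Slfn1 had 4.47 ± 0.44 beside the value of Cxcl10. Of the genes for the type I interferon receptor and its signalling, Stat2 (1.99 ± 0.12) and Irf9 (0.26 ± 0.05) were higher on day 4, and the receptor gene Ifnar1 (-0.38 ± 0.06) and the kinase gene Jak1 (-0.21 ± 0.06) were lower. Ifnar2 (0.14 ± 0.05) and Tyk2 (0.26 ± 0.10) were not called by edgeR. Stat2 is also on the first list. In untreated cells all 25 genes of the first list were called higher on day 2 than on day 1 and lower on day 4 than on day 3, as all 7 Schlafen genes were.

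**Figure D5:**
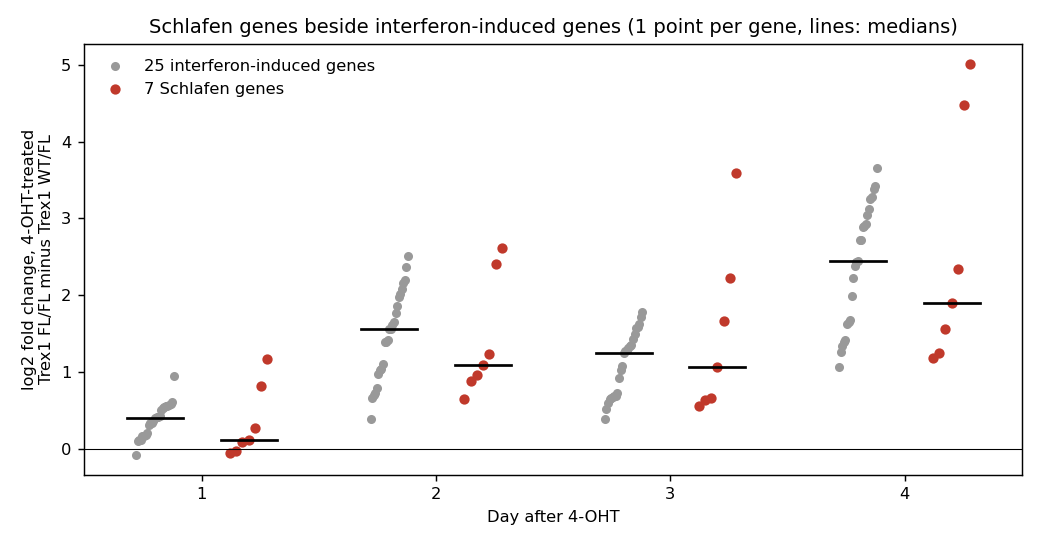
Log2 fold change between Trex1-deleted and control BMDMs on days 1 to 4 for the 25 interferon-induced genes (grey) and the 7 Schlafen genes (red), 1 point per gene, with lines at the medians. The medians are 0.40 and 0.11 on day 1 and 2.45 and 1.90 on day 4, and the 2 red points above the grey ones on day 4 are Slfn1 and Slfn4.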

How the data were processed

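RNA of 32 BMDM libraries was sequenced on an Illumina instrument. The authors estimated transcript levels with Salmon and summed them to genes with tximport against GRCm39, and deposited estimated counts per gene, which were whole numbers. The submitters' processing notes also name FastQC 11.9 and DESeq2 1.32. Column totals, not alignments, give the depth, and precision is limited by 2 libraries per group. For the comparisons, edgeR 4.0.16 (limma 3.58.1, R 4.3.3) was used with TMM factors, a count minimum of 10 (filterByExpr), 1 mean for each of the 16 groups over all 32 libraries, the robust quasi-likelihood F test, and Benjamini-Hochberg adjustment over the 15257 genes of each contrast. The limit for a call was an adjusted p of 0.01. Of the identifiers, 51048 of 54281 matched GENCODE vM39, and unmatched rows held 0.32% of counts. Alternatives were RLE factors, other filters, DESeq2 1.42.0, other thresholds, fits to the compared groups only, sums of near-identical genes, untreated controls, and leaving out each library. The scripts were tested on simulated data. The members and lists were chosen with earlier results of these data known. Named genes were all members, other Slfn genes, the 3 most correlated and nearest genes, Trex1, and the 2 highest and lowest of each list. Correlations used log2 CPM with a prior count of 2. Some genes of the marker, neighbour and signalling lists are not reported here.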

Additional observations from a re-analysis of the deposited data

Results flagged for a closer look

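The effect of 4-OHT differed between the genotypes for most Schlafen genes by the interaction term of the edgeR fit. On day 2 the difference in log2 fold change, Trex1 FL/FL minus Trex1 WT/FL, was 0.75 for Slfn2, 1.31 for Slfn3, 2.40 for Slfn4, 1.12 for Slfn5, 1.01 for Slfn8 and 1.09 for Slfn9. On day 3 it was 0.62 for Slfn2, 1.79 for Slfn3, 3.27 for Slfn4, 0.67 for Slfn8 and 0.99 for Slfn9. On day 4 it was 4.59 for Slfn1, 1.02 for Slfn2, 2.54 for Slfn3, 5.00 for Slfn4, 1.27 for Slfn5, 1.61 for Slfn8 and 1.90 for Slfn9. The genotype difference after 4-OHT also differed between days. From day 1 to day 2 it grew by 0.56 for Slfn2, 1.26 for Slfn3, 0.69 for Slfn5, 0.77 for Slfn8 and 1.14 for Slfn9. From day 3 to day 4 it grew by 0.55 for Slfn2, 0.70 for Slfn5, 0.90 for Slfn8 and 0.83 for Slfn9. Groups of 2 libraries are too small for a test of single libraries that stand apart.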

How the results depend on the processing

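The genotype difference after 4-OHT was called for 7 of 7 members on days 2, 3 and 4 with RLE factors, a minimum of 1 CPM and DESeq2. With the fold minimum of the study (log2 fold change above 1.5) the counts were 2 and 3 on days 2 and 3, 1 and 2 for the interaction, 3 and 3 for 4-OHT in Trex1 FL/FL cells, 4, 0 and 1 for the successive days of untreated cells, 0 for days 2 to 3 of 4-OHT-treated Trex1 FL/FL cells, and 0 and 0 for the growth of the genotype difference to day 2 and to day 4. With no filter on low counts, 4-OHT in Trex1 WT/FL cells gave 1 and 3 calls on days 2 and 3, treated Trex1 FL/FL cells 4 and 1 between days 2 and 3 and days 3 and 4, and the genotype difference 2 and 7 changes. An adjusted p below 0.05 gave 4 calls for treated Trex1 FL/FL cells between days 2 and 3. A fit to only the groups compared gave 5 and 1 calls there and between days 3 and 4, and 3 for the growth to day 2. In that fit Slfn3 on day 2, Slfn1 and Slfn4 on day 3 and Slfn4 on day 4 were not called between the genotypes (Slfn4 on day 4, adjusted p = 0.0478 in edgeR). With near-identical genes added together, leaving 5 features, the counts were 3 for the interaction on day 3, 3 for days 2 to 3 of untreated cells and 1 for those of treated Trex1 FL/FL cells. Leaving out 1 library gave 1 to 1 calls for the latter, 3 to 5 for the growth to day 2 and 2 to 5 for that to day 4. Among these alternatives, the share of all genes called was counted only for the fold minimum in the genotype difference after 4-OHT. The other counts of members therefore have no share of all genes beside them. Signs turned on day 1, where no member was called. Against untreated Trex1 FL/FL cells the values were -0.72 for Slfn1, -0.075 for Slfn2, -0.027 for Slfn5, -0.005 for Slfn8 and 0.002 for Slfn9, and with 1 library left out they ranged from -0.184 to 0.115 for Slfn3, -0.046 to 0.25 for Slfn8 and -0.154 to 0.029 for Slfn9. Where the alternative did not itself change the genes, libraries or threshold, the cause was not tested. No paired analysis was possible because the labels give no replicate number, animal or culture. Pairing libraries by their running order was not tried. The counts of calls for 4-OHT in Trex1 WT/FL cells therefore come from unpaired fits, and whether pairing would change them was not tested. With few counts, Slfn1 and Slfn4 on day 1 had standard errors of 1.29 and 0.54, which limits what day 1 can show for them.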
